A study of Homo sapiens with 24 samples.

Results

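APOBEC3 proteins are cytidine deaminases. They convert cytosine to uracil in single-stranded DNA, and several of them block retroviruses and retrotransposons in this way. APOBEC3B is mainly nuclear and is known as a source of C-to-T changes in tumour genomes, whereas APOBEC3G is mainly cytoplasmic and is known for being packaged into retroviral particles. The genes lie side by side on chromosome 22, and RefSeq places 7 family members there on GRCh38.p14, from APOBEC3A at chr22:38957609-38963184 to APOBEC3H at chr22:39097244-39104067.

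The 5 genes described here, APOBEC3A, APOBEC3B, APOBEC3C, APOBEC3F and APOBEC3G, were taken with every probe set that the annotation of the U133 Plus 2.0 array assigned to 1 of them alone. A probe set is the group of short probes from which the array computes 1 signal. Of the 54675 probe sets, 6 met this rule. They stood for 4 of the 5 genes, out of 19775 genes that such a probe set named alone. APOBEC3B had 206632_s_at and APOBEC3C had 209584_x_at. APOBEC3F had 243912_x_at and 214994_at, and APOBEC3G had 204205_at and 215579_at, of which the first named had the higher mean log2 signal over all arrays and stood for the gene. The suffix x marks probe sets that can also bind similar sequences, and the suffix s marks those shared by several transcripts, so among near-identical paralogs the signals of APOBEC3B, APOBEC3C and APOBEC3F may hold some of a relative. APOBEC3A had no probe set of its own. Its 210873_x_at also names the fused gene APOBEC3A_B, gave signals between 7.1 and 109 over the 24 arrays, and was attributed to neither. The probe set 214995_s_at, which names both APOBEC3F and APOBEC3G, was counted for neither.

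The arrays came from MV4-11 and MOLM-14, human acute myeloid leukaemia cell lines with an internal tandem duplication in the receptor tyrosine kinase FLT3. In MV4-11 only the duplicated allele is present, and MOLM-14 also has a wild-type allele. Each line was treated for 24 h with DMSO (the solvent), with ABT-869 at 3 nM (an inhibitor of FLT3 and other receptor tyrosine kinases), with SAHA at 6 µM (a histone deacetylase inhibitor), or with ABT-869 and SAHA together, called the combination, for which the doses were not given again. There were 3 biological replicates in each of the 8 groups, 1 array each, with no donor and no second clone of either line. Signals are on the deposited linear scale, where every array had a trimmed mean of 500.1 and array medians lay between 61.3 and 99.6. Changes are differences of mean log2 signal from limma with their standard error (SE), and a call means an adjusted p under 0.05 after Benjamini-Hochberg adjustment over 54613 probe sets. Of the 9 myeloid markers, 7 were measured by a probe set naming them alone, and each was above 200 on all 24 arrays. With the combination against DMSO, LYZ (0.53) was called higher and MPO (-0.90) and PTPRC (-0.49) lower in MV4-11, and ITGAM (0.91) was called higher and MPO (-2.87) lower in MOLM-14. Of all probe sets, 4.89% were called higher and 4.05% lower in MV4-11, and 3.15% and 2.8% in MOLM-14. Of the 15 markers of other cell types, 12 were measured in this way, and NKG7 (702.9 to 1499.8), CD79A (140.3 to 422.2) and COL1A1 (227.5 to 579.5) were the brightest. On MV4-11 the summed signal of those 12 was 2543.9 to 2727.6 with DMSO and 1912.5 to 2274.1 with the combination, and none of the 12 was called in that comparison. In MOLM-14 the sum was 2092.0 to 2525.1 with DMSO and 1877.1 to 2105.0 with the combination, and again none was called. Several of the 12 were dim, with medians over all arrays of 7.1 for KRT19, 14.2 for CD3G and 18.95 for EPCAM. For such genes the lack of a call says little. The part of the myeloid and other markers in the results was not tested. The array with the largest deviation from its group was replicate 3 of the MV4-11 combination, with an SD of 0.33 log2 units over probe sets, and replicate 2 of that group had 0.306.

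APOBEC3B, in brief, was lowest with the combination in both lines, and its signal there was further below the DMSO level in MV4-11 than in MOLM-14. APOBEC3G was lower with the combination than with DMSO in MV4-11, but this call was lost in several fits that left out 1 array. No change of APOBEC3C was called with the settings used here, although some were under other settings. APOBEC3F was too dim to compare. The study's rule asked for a change of at least a set fold with the combination against DMSO in both lines, and less with each drug. By that rule APOBEC3B (206632_s_at) was selected on these same arrays. Its values against DMSO are therefore given as a description with no p. Its tests of the combination against each drug rest on the same arrays, and the choice favours a lower signal with the combination. They are therefore not independent evidence, and their p-values may be too small.

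**Figure D1:**
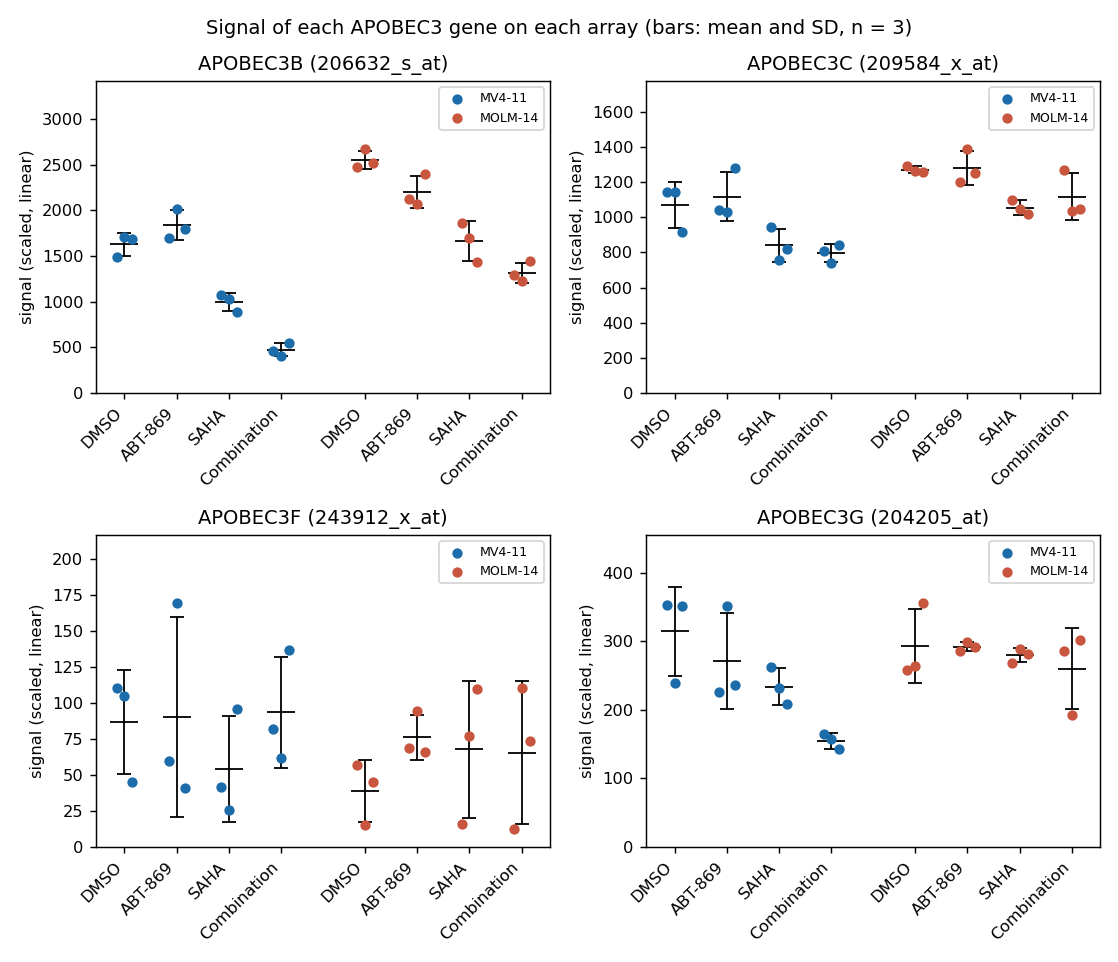
Signal on the deposited linear scale (vertical axis, from 0) of the probe set standing for each APOBEC3 gene on all 24 arrays, by treatment and cell line. Points are arrays, the long horizontal lines are means and the bars the SD (n = 3). APOBEC3B lay between 412.2 and 551.3 on the MV4-11 combination arrays, under every other array of that line, and APOBEC3F ranged from 12.2 to 169.5 with overlapping groups.

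APOBEC3B gave signals of 1485.7, 1712.9 and 1690.9 in MV4-11 with DMSO. With ABT-869 the arrays gave 1703.1, 2020.0 and 1796.2. Both groups overlapped, so no separation of ABT-869 from DMSO was seen. SAHA gave 1077.7, 1034.8 and 887.0, and the combination gave 466.8, 412.2 and 551.3. Every SAHA array was under every DMSO array, and every combination array was under every SAHA array. The means were 1629.8 ± 125.3 with DMSO, 1839.8 ± 162.9 with ABT-869, 999.8 ± 100 with SAHA and 476.8 ± 70.08 with the combination (SD, n = 3 each). The log2 change from DMSO was 0.17 with ABT-869, -0.71 with SAHA and -1.78 with the combination (SE 0.15 for each), the last being 3.44-fold lower. Since these are bulk RNA samples, fewer cells that express a gene and less of its RNA per cell cannot be told apart.

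In MOLM-14, APOBEC3B gave 2479.8, 2668.4 and 2518.6 with DMSO. ABT-869 gave 2129.6, 2075.2 and 2395.2, all under the DMSO arrays. SAHA gave 1866.0, 1692.7 and 1437.6, and the combination 1289.0, 1226.9 and 1441.5. The combination and SAHA groups overlapped by 1 array, and both lay under all ABT-869 and DMSO arrays. The means were 2555.6 ± 99.6, 2200.0 ± 171.2, 1665.4 ± 215.5 and 1319.1 ± 110.4 in that order (SD, n = 3 each). The log2 change from DMSO was -0.22 with ABT-869, -0.63 with SAHA and -0.96 with the combination (SE 0.13 for each), and the last was 1.94-fold lower. On these values that is just under the fold that the study's methods set for its lists. The SAHA change was smaller, -0.38, after centring each array on its median. Without centring the median change of all probe sets in that comparison was -0.14.

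The 8 groups can be ordered by the mean of APOBEC3B, from MOLM-14 with DMSO over MOLM-14 with ABT-869, MV4-11 with ABT-869, MOLM-14 with SAHA, MV4-11 with DMSO, MOLM-14 with the combination and MV4-11 with SAHA down to the MV4-11 combination. Among neighbours in this order, MV4-11 with ABT-869 overlapped MOLM-14 with SAHA, which overlapped MV4-11 with DMSO. The other neighbours did not overlap. Untreated MOLM-14 had more APOBEC3B signal than untreated MV4-11, by 0.65 on the log2 scale (SE 0.13, adjusted p = 0.00357, limma), with all 3 arrays above all 3. In this comparison of the lines 10.1% of all probe sets were called in either direction, and the median of all probe sets was -0.15.

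APOBEC3B was lower with the combination than with ABT-869 alone in both lines. The study's choice of APOBEC3B favours a negative difference here and against SAHA, so these tests are not independent evidence that it fell. The combination minus ABT-869 difference in MV4-11 was -1.95 (SE 0.15, adjusted p = 0.000877, limma), 3.88-fold lower, where 1.81% of all probe sets were called lower. In MOLM-14 the difference was -0.74 (SE 0.13, adjusted p = 0.00977, limma), 1.67-fold lower, where 3.54% of all probe sets were called lower. All 3 combination arrays were under all 3 ABT-869 arrays in each line.

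Against SAHA alone, APOBEC3B was lower with the combination in MV4-11, with a difference of -1.07 (SE 0.15, adjusted p = 0.0187, limma). This was 2.1-fold lower, where 0.566% of all probe sets were called lower. This call was lost when any SAHA array, or combination array 1 or 2, was left out, with differences from -0.97 to -1.16 and adjusted p from 0.0513 to 0.0808 (limma). It was also lost with the replicate number as a block (adjusted p = 0.0872). In MOLM-14 the difference was -0.33 (SE 0.13, 95% interval -0.62 to -0.04, adjusted p = 0.469, limma) and was not called. Few probe sets were called lower there at all, 0.00549%. With each array centred on its median the MOLM-14 difference was -0.64 (adjusted p = 0.102), and the median probe set of this comparison stood at 0.11 without centring.

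**Figure D2:**
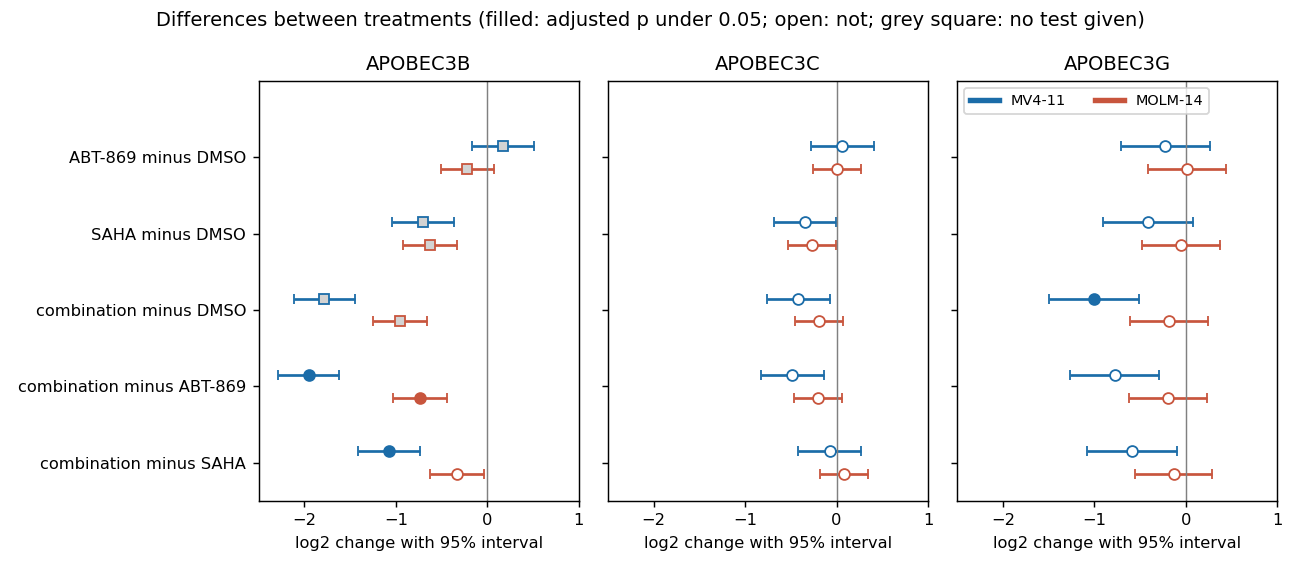
Log2 change (horizontal axis, with 95% interval) of APOBEC3B, APOBEC3C and APOBEC3G in 5 comparisons within MV4-11 (blue) and MOLM-14 (red). Filled circles had an adjusted p under 0.05 and open circles did not, and grey squares carry no test because the study chose APOBEC3B on those comparisons. For APOBEC3B the combination minus ABT-869 difference lay at -1.95 for MV4-11 against -0.74 for MOLM-14.

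The size of the APOBEC3B differences was compared between the lines with an interaction term over all 24 arrays. For the changes against DMSO, on which the study selected it, only the size is given. The combination minus DMSO change was 0.82 less negative in MOLM-14 than in MV4-11 (SE 0.18, 95% interval 0.44 to 1.21), in a comparison where 6.55% of probe sets were called in either direction. The combination minus ABT-869 difference was 1.22 less negative in MOLM-14 (SE 0.18, adjusted p = 0.00159, limma), where 3.63% were called and the median probe set stood at 0.10. For the combination minus SAHA difference, the lines stood 0.74 apart (SE 0.18, adjusted p = 0.129, limma) and 0.233% of probe sets were called. That line difference was called with values under 32 raised to 32, with limma-trend and without dim probe sets (adjusted p 0.0207 to 0.0347). The ABT-869 minus DMSO change stood -0.39 apart (SE 0.18) with 0.352% called, and the SAHA minus DMSO change 0.08 apart (SE 0.18) with 1.23% called. Neither of these passed the adjusted threshold.

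Whether both drugs together did more than the sum of their single log2 changes was given by the departure from additivity, which is negative when the combination lies below that sum. The study's choice of APOBEC3B, a change with the combination that exceeded those with each drug, favours a negative value, so its departure is a description with no test. It was -1.25 in MV4-11 (SE 0.21, 95% interval -1.73 to -0.77), where 0.022% of all probe sets were called in either direction. In MOLM-14 it was -0.11 (SE 0.18, 95% interval -0.53 to 0.30), with 0.0128% called. The lines stood 1.13 apart in this value (SE 0.26), with 0.0201% called. APOBEC3B was not among the probe sets called in any of these comparisons. Its MV4-11 departure passed the threshold under 4 of 8 other settings, and in none of 12 fits that left out 1 array. The line difference passed under 3 of 7 other settings, and in none of 24 such fits.

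APOBEC3C, a member with weak antiviral activity of its own, gave 1143.5, 1141.4 and 918.5 in MV4-11 with DMSO. The ABT-869 arrays gave 1042.2, 1029.1 and 1278.5, and the SAHA arrays 944.1, 758.7 and 819.9. The combination gave 805.1, 740.4 and 842.9, under every DMSO and every ABT-869 array but among the SAHA arrays. The combination minus DMSO change of -0.42 (SE 0.15, 95% interval -0.76 to -0.08, adjusted p = 0.133, limma) was not called, nor was the combination minus ABT-869 difference of -0.48 (adjusted p = 0.13, limma). Both were called with limma-trend, in the fit over 24 arrays and without dim probe sets (adjusted p 0.0214 to 0.037). Against SAHA the combination stood at -0.08 (95% interval -0.42 to 0.26, adjusted p = 0.893, limma).

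In MOLM-14, APOBEC3C gave 1291.7, 1262.6 and 1258.3 with DMSO, and 1200.0, 1385.6 and 1251.9 with ABT-869. SAHA gave 1099.4, 1044.6 and 1016.6, all under the DMSO arrays, and the combination gave 1270.8, 1036.0 and 1045.8. Replicate 1 of the combination thus stood with the DMSO arrays and the other 2 with the SAHA arrays. The change from DMSO was -0.27 with SAHA (SE 0.12, adjusted p = 0.226, limma) and -0.19 with the combination (adjusted p = 0.443, limma), and neither was called. Untreated MOLM-14 exceeded untreated MV4-11 by 0.26 (adjusted p = 0.235, limma), a difference that was 0.52 and called with centred arrays (adjusted p = 0.0279).

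APOBEC3G, whose editing of retroviral DNA is countered by the Vif protein of HIV, gave 353.5, 239.3 and 351.2 in MV4-11 with DMSO and 225.4, 351.3 and 236.0 with ABT-869. SAHA gave 262.0, 231.4 and 208.3, and the combination 165.2, 157.2 and 142.6. Each combination array was below each of the other 9 arrays of the line, while the other 3 groups overlapped. The combination minus DMSO change was -1.001 (SE 0.22, 95% interval -1.49 to -0.51, adjusted p = 0.0218, limma), in a comparison where 4.05% of all probe sets were called lower. The call was lost without any 1 of the 3 combination arrays, without DMSO array 1 or 3 (adjusted p 0.0507 to 0.0783) and with the replicate block (adjusted p = 0.0584). Against ABT-869 the combination stood at -0.78 (adjusted p = 0.0912, limma), called with limma-trend, in the fit over 24 arrays and without dim probe sets (adjusted p 0.0213 to 0.0418). Against SAHA it stood at -0.59 (adjusted p = 0.279, limma).

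In MOLM-14 this probe set was called in no comparison. DMSO gave 258.8, 264.7 and 355.9, ABT-869 285.7, 299.0 and 291.2, SAHA 268.9, 289.2 and 282.0, and the combination 285.5, 192.4 and 302.2. The combination overlapped each of the other groups, with replicate 2 as the only array under all others. The combination minus DMSO change was -0.18 (SE 0.19, 95% interval -0.61 to 0.24, adjusted p = 0.692, limma). It stood 0.82 above that of MV4-11 (SE 0.28, adjusted p = 0.106, limma), not called, although it was called without dim probe sets (adjusted p = 0.0384) and without combination array 2 of MOLM-14 (1.02, adjusted p = 0.0367) or DMSO array 2 of MV4-11 (1.003, adjusted p = 0.0464).

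The second probe set of APOBEC3G, 215579_at, was dimmer, with 12 of 24 arrays under 32 and signals from 10.9 to 155.3. Its combination minus DMSO change in MV4-11 was -0.55 (adjusted p = 0.809, limma). Over 19 comparisons within and between the lines it had the opposite sign of 204205_at in 8, and the deviations of both probe sets from their line means correlated at r = 0.22 over 24 arrays. The probe set shared by APOBEC3F and APOBEC3G, 214995_s_at, averaged 280.5 with DMSO, 263 with ABT-869, 183.3 with SAHA and 128.2 with the combination in MV4-11, and 202.8, 153.3, 214.9 and 210 in MOLM-14. Its order in MV4-11 was that of 204205_at, but which of both genes it reports cannot be told apart.

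APOBEC3F, which also edits retroviral DNA, lay near the middle of the array's signals. Its 243912_x_at ranged from 12.2 to 169.5 with 4 arrays under 32. Within MV4-11 the group means ran from 54.33 ± 36.94 with SAHA to 93.53 ± 38.61 with the combination (SD, n = 3). Within MOLM-14 they ran from 39.1 ± 21.51 with DMSO to 76.17 ± 15.67 with ABT-869. In that pair every ABT-869 array was above every DMSO array, and the other treatment groups overlapped with DMSO. No comparison was called, and with an SE of 0.65 in MV4-11 and 0.95 in MOLM-14 a change of the size seen for APOBEC3G was not detectable. Its second probe set, 214994_at, was under 32 on 17 of 24 arrays.

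APOBEC3B is left out of the calls against DMSO, as the study selected it on these comparisons. Of the other probe sets standing for the genes, only APOBEC3G was called lower with the combination in MV4-11, and none in MOLM-14. Of all probe sets, 4.05% were called lower in MV4-11 and 2.8% in MOLM-14. With SAHA alone none of them was called in either line, where 0.996% of all probe sets were called lower in MV4-11 and 2.58% in MOLM-14. The SAHA change of APOBEC3B, a description here, passed the adjusted threshold in each line. Neither of these calls was stable. In MV4-11 it was lost in 11 of 12 fits that left out 1 array (all but that without combination array 3), and in MOLM-14 in 5 of 12 (without any DMSO array, or SAHA array 2 or 3). Both were lost with centred arrays and with the replicate block, and the MOLM-14 call also without the 4 arrays that stood apart. With ABT-869 alone none was called, where 0.491% of all probe sets were called lower in MV4-11 and 0.0146% in MOLM-14. As APOBEC3B was selected on these comparisons, nothing is read from whether it passed.

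The genes whose pattern was most like that of each member were sought among 22733 probe sets, by the correlation of log2 signals over 24 arrays after subtracting each line's mean. These correlations are descriptions, since arrays of 1 group share their treatment. APOBEC3B was most like RACGAP1 (r = 0.97), which acts in cytokinesis, CCNB1 (r = 0.97), the mitotic cyclin B1, and TOP2A (r = 0.97), a topoisomerase of dividing cells. Within MV4-11 these r were 0.99, 0.99 and 0.99, and within MOLM-14 they were 0.91, 0.91 and 0.89. The combination minus SAHA differences in MV4-11 were -0.67 for RACGAP1, -1.04 for CCNB1 and -0.93 for TOP2A, beside -1.07 for APOBEC3B. In MOLM-14 all 3 stood within 0.03 of 0, while APOBEC3B stood at -0.33, and this gap was not tested.

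**Figure D3:**
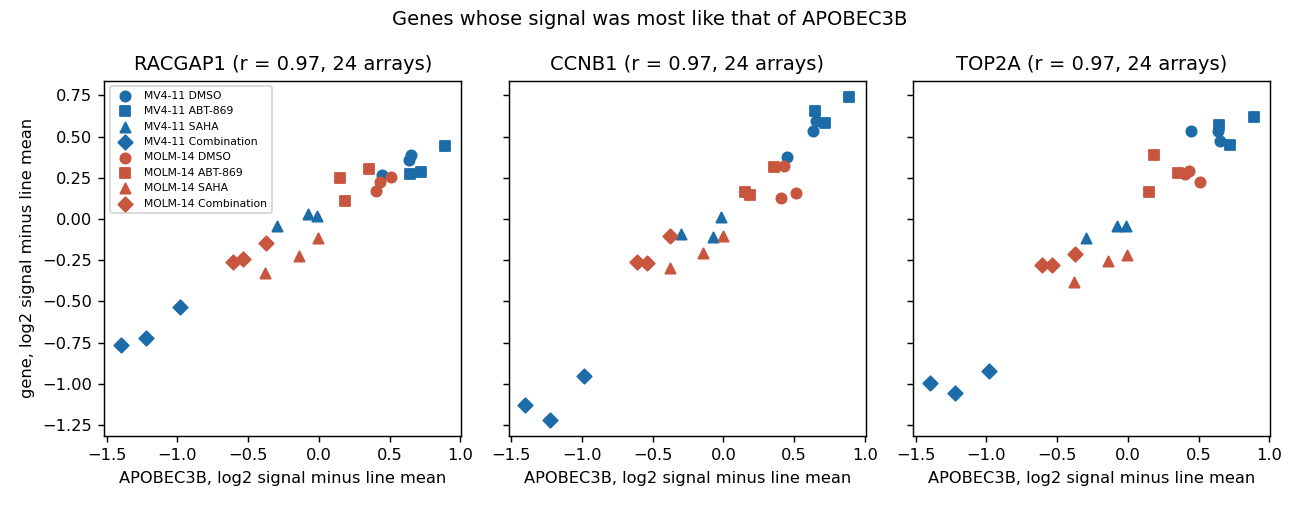
Log2 signal minus the line's mean of RACGAP1, CCNB1 and TOP2A (vertical axes) against that of APOBEC3B (horizontal axes) on 24 arrays, coloured by line and shaped by treatment. The MV4-11 combination arrays lie at the low end of both axes, and the MOLM-14 combination arrays lie to the left of most SAHA arrays of that line at about the same height (r = 0.97 in each panel).

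APOBEC3C was most like FBXW4, MICB and EPC1 (r = 0.85 for each). All 3 were called lower with the combination against DMSO in each line, where 4.05% of all probe sets were in MV4-11 and 2.8% in MOLM-14. As they were picked for their likeness on these same arrays, their calls add nothing about APOBEC3C, which was not called. The APOBEC3G likeness was less even, since SHOX2, GALC and NEK6 reached r of 0.85, 0.84 and 0.83 over all arrays but 0.48, 0.13 and 0.29 within MOLM-14. Among the members, APOBEC3B correlated with APOBEC3C at r = 0.76 and with APOBEC3G at r = 0.75, and APOBEC3C with APOBEC3G at r = 0.50. Both APOBEC3F probe sets correlated at r = 0.06 with each other.

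The position of the genes allowed their neighbours to be read. APOBEC3B lies at chr22:38982347-38992779, APOBEC3C at chr22:39014257-39020352, APOBEC3F at chr22:39040864-39055972 and APOBEC3G at chr22:39077005-39087743. Of the 7 flanking genes SUN2, NPTXR, CBX6, CBX7, PDGFB, RPL3 and SYNGR1, none was called with the combination against DMSO in either line, with medians of -0.17 in MV4-11 and 0.09 in MOLM-14. The medians of all probe sets were -0.02 and 0.03. Of all probe sets, 4.05% were called lower and 4.89% higher in MV4-11, and 2.8% and 3.15% in MOLM-14. These 7 genes are too few to be told apart from such shares. Their changes ran from -0.93 to 0.14 in MV4-11 and from -0.60 to 0.72 in MOLM-14. For 1 of the 7 the change differed between the lines by the interaction term, where 6.55% of all probe sets were called. PDGFB, a platelet-derived growth factor chain, was the one flanking gene called against ABT-869, in MV4-11, at -1.49 (SE 0.30, adjusted p = 0.029, limma). In that comparison 1.81% of all probe sets were called lower. APOBEC3D, which lies between APOBEC3C and APOBEC3F, averaged 95.9 ± 17.78 with DMSO and 98.27 ± 46.71 with the combination in MV4-11 (SD, n = 3). With ABT-869 in that line it averaged 182 ± 29.32, each array (158.4 to 214.8) above each DMSO array (84.7 to 116.4). It was called in no comparison.

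**Figure D4:**
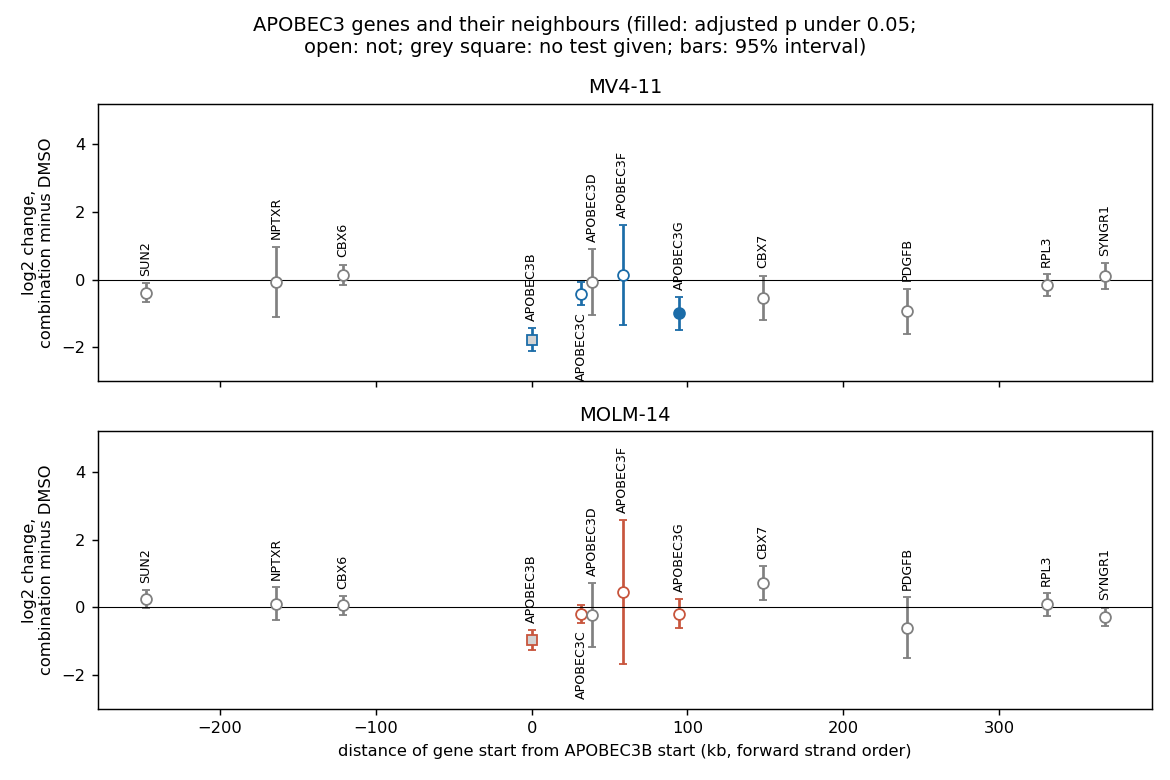
Log2 change with the combination against DMSO (vertical axis, bars 95% interval) of APOBEC3 genes (coloured) and of APOBEC3D and flanking genes (grey), by the distance in kb of each gene's lower coordinate from that of APOBEC3B. Filled circles had an adjusted p under 0.05, open circles did not, and the grey square is APOBEC3B, given without a test. APOBEC3G at -1.001 in MV4-11 is the one filled point.

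The AID/APOBEC and ADAR families hold further editing enzymes of DNA and RNA. Of 10 such genes, 7 were measured, and none of the 7 was called with the combination against DMSO in either line. Their median change was -0.08 (MV4-11) and -0.12 (MOLM-14). The calls among all probe sets were 4.05% lower and 4.89% higher for MV4-11, against 2.8% and 3.15% for MOLM-14. A list of 7 genes is too short to be told apart from such shares. APOBEC1 (group means 20.33 to 57.87) and ADARB2 (9.967 to 53.9) stayed under the median signal of 69.9. With SEs of 0.75 and 0.60 in MV4-11, they cannot be taken as unchanged. ADAR, which edits adenosine in double-stranded RNA, stood at 0.26 in MV4-11 (adjusted p = 0.157, limma) and -0.02 in MOLM-14 (adjusted p = 0.955, limma).

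Uracil left in DNA by deaminases is removed by glycosylases and repaired by base excision repair. All 14 genes of that list were measured. With the combination against DMSO in MV4-11, 2 were called lower and none higher (median 0.01), namely LIG1, a DNA ligase, at -0.73, and XRCC1, a repair scaffold, at -0.49, where 4.05% of all probe sets were called lower. In MOLM-14, 4 were called lower and 1 higher (median -0.31), where 2.8% of all probe sets were called lower and 3.15% higher. The largest fall was that of UNG, the main uracil-DNA glycosylase, whose signal was 4215.6 ± 511.7 with DMSO and 1114.6 ± 277.6 with the combination (SD, n = 3), a change of -1.94. LIG1 followed at -1.08, and POLB, the gap-filling polymerase, rose by 0.66. UNG in MV4-11 averaged 2379.9 ± 171 with DMSO and 2365.2 ± 221.8 with the combination. The change of UNG thus stood 1.93 lower in MOLM-14 than in MV4-11 (difference -1.93, SE 0.19, adjusted p = 1.73e-05, limma), whereas that of APOBEC3B stood 0.82 higher. A link between UNG and APOBEC3B was not tested.

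**Figure D5:**
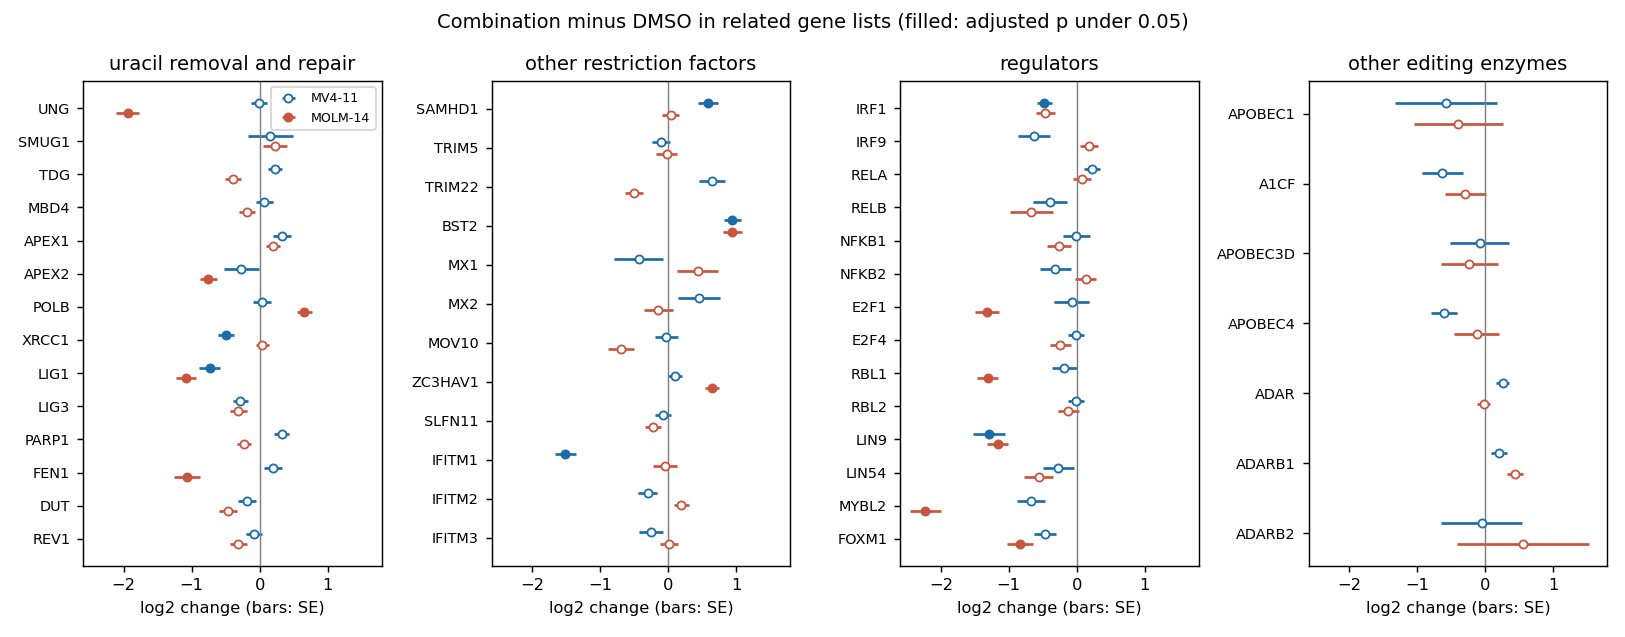
Log2 change with the combination against DMSO (horizontal axes, bars SE) of each measured gene of 4 lists in MV4-11 (blue) and MOLM-14 (red), filled where the adjusted p was under 0.05. UNG stands at -1.94 in MOLM-14 and near 0 in MV4-11, BST2 rose in both lines, and LIN9 fell in both lines.

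Among genes known as regulators of APOBEC3 transcription, 14 of 16 were measured. They include NF-kB subunits, interferon response factors, and the E2F, DREAM and MuvB proteins of cell cycle transcription. With the combination against DMSO, 2 were called lower in MV4-11 (median -0.29), LIN9 at -1.30 and IRF1 at -0.48, while MOLM-14 had 5 (median -0.51). Of all probe sets, 4.05% were called lower in MV4-11 and 2.8% in MOLM-14. LIN9, a MuvB core subunit, fell in both lines, from 443.5 ± 29.2 to 182.1 ± 30.49 in MV4-11 and from 430.4 ± 25.86 to 194.8 ± 40.8 in MOLM-14 (SD, n = 3), by 1.16 on the log2 scale in the latter. In MOLM-14, MYBL2, the B-MYB transcription factor, changed by -2.23, and E2F1, which drives entry into S phase, by -1.32, both called lower. Their change stood lower in MOLM-14 than in MV4-11 by the interaction term, -1.56 for MYBL2 (adjusted p = 0.00379, limma) and -1.25 for E2F1 (adjusted p = 0.0225, limma). The difference for APOBEC3B had the opposite sign, and a link between these genes and APOBEC3B was not tested. None of the 14 was called higher in either line.

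Other restriction factors of retroviruses were mixed. Of 13, 12 were measured, and with the combination against DMSO 2 were called higher and 1 lower in MV4-11 (median -0.05), where 4.89% of all probe sets were called higher and 4.05% lower. In MOLM-14, 2 were called higher and none lower (median -0.01), where 3.15% of all probe sets were called higher. BST2, or tetherin, which holds virions at the cell surface, rose in both lines, by 0.94 in MV4-11 and 0.95 in MOLM-14. SAMHD1, a nucleotide phosphohydrolase, rose by 0.59 in MV4-11, and ZC3HAV1, which binds viral RNA, rose by 0.65 in MOLM-14. IFITM1, a membrane protein that hinders viral entry, fell by 1.51 in MV4-11 and stood 1.47 higher by the interaction term in MOLM-14 (adjusted p = 0.000526, limma).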

How the data were processed

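RNA from 24 cultures (RNeasy Midi Kit) was hybridised to 24 Affymetrix U133 Plus 2.0 arrays. The deposited values are linear signal intensities, 1 column per array, that the authors had already scaled between arrays, as all trimmed means (2% off each end) were 500.1. The labels and methods name no software for this step, and array data give no count depth, so the number of arrays limits the precision. Values under 1 (0.209%) were raised to 1 and log2 was taken. Replicates are labelled biological, and p-values cover the spread between them.

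limma 3.58.1 in R 4.3.3 was fitted per line over 12 arrays and 4 groups, and over all 24 arrays for differences between lines. After removal of 62 control probe sets, p-values were adjusted over 54613 probe sets. Of these, 41091 named 1 gene, 1801 several and 11721 none, by the platform annotation with symbols updated through RefSeq. The probe set with the highest mean log2 stood for a gene. The script was tested on simulated data.

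Genes named were the members, the 3 most like APOBEC3B, APOBEC3C and APOBEC3G, and of each list at most 2 rises and 2 falls per line with the combination against DMSO. ADAR, PDGFB, APOBEC3D, the flanking genes and the myeloid markers were named after their values were seen. The members and lists were chosen with earlier results of these data known. Alternatives were centring on the median, quantile normalization, values under 32 raised to 32, limma-trend, no dim probe sets, 1 fit for both lines, further probe sets, a replicate block, each array left out and, chosen after seeing the data, 4 arrays that stood apart left out, namely the array with the largest deviation of each group where it was over 0.3 (replicate 2 of the MV4-11 combination, also over 0.3, was kept as the second of its group).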

Additional observations from a re-analysis of the deposited data

Results flagged for a closer look

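The combination minus DMSO change of APOBEC3B was -1.78 in MV4-11 and -0.96 in MOLM-14, and the lines stood 0.82 apart (SE 0.18, limma interaction term over 24 arrays). Leaving out each array in turn gave from 0.72 to 0.93. This difference passed the adjusted threshold, but it rests on the changes against DMSO on which the study had selected APOBEC3B, so no p is given. The combination minus ABT-869 difference of APOBEC3B was -1.95 in MV4-11 and -0.74 in MOLM-14, and the lines differed by 1.22 (SE 0.18, adjusted p = 0.00159, limma), on the same arrays, which is not independent evidence. Among the members and their drug comparisons, these were the line differences that passed the test.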

How the results depend on the processing

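The combination minus ABT-869 difference of APOBEC3B kept its direction and call in both lines under every alternative run. With the replicate number as a block, the combination minus SAHA difference of APOBEC3B in MV4-11 (-1.07, adjusted p = 0.0872) and APOBEC3G against DMSO in MV4-11 (-1.001, adjusted p = 0.0584) were no longer called. Same-numbered arrays of a line had deviations with a median correlation of -0.01 in MV4-11 and 0.06 in MOLM-14, so the numbers were not taken to pair the cultures. In MV4-11, APOBEC3C (-0.48) was called against ABT-869 with values under 32 raised to 32. Both APOBEC3C and APOBEC3G (-0.78) were called against ABT-869 with limma-trend, with 1 fit over 24 arrays and without dim probe sets. Against DMSO, APOBEC3C (-0.42) was called under the last 3 settings. The share of all probe sets called under these settings was not counted. Centring turned the sign of APOBEC3C with ABT-869 in MV4-11 (-0.054), with the combination minus SAHA in MOLM-14 (-0.22) and in the line difference of the latter (-0.10), and of APOBEC3G with SAHA in MOLM-14 (0.20) and between the untreated lines (0.16). Without the 4 arrays that stood apart, APOBEC3C in MOLM-14 gave -0.0003 with ABT-869 and -0.017 with the combination minus SAHA, and APOBEC3G with SAHA gave 0.097, while APOBEC3G against DMSO in MV4-11 (-0.94) and APOBEC3B against SAHA (-1.18) kept their calls. The second APOBEC3G probe set, 215579_at, gave -0.55 with the combination in MV4-11, and turned the sign with ABT-869 (-0.51 in MOLM-14, 0.93 in MV4-11), between the untreated lines (0.36), and in MOLM-14 with the combination minus ABT-869 (0.43) and minus SAHA (1.08). None of the turned values was called, and the cause was not tested.

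Leaving out 1 array at a time gave the combination minus SAHA difference of APOBEC3B in MV4-11 from -1.18 to -0.97, and APOBEC3G against DMSO from -1.19 to -0.91, with 0 to 1 and 1 to 2 probe sets called lower. Signs turned for values near 0. For APOBEC3C these were ABT-869 in MOLM-14 (-0.052 to 0.052) and MV4-11 (-0.040 to 0.12) and the combination minus SAHA in MOLM-14 (-0.017 to 0.13) and MV4-11 (-0.15 to 0.012). For APOBEC3G they were, in MOLM-14, ABT-869 (-0.072 to 0.16), SAHA (-0.13 to 0.097) and the combination minus ABT-869 (-0.32 to 0.0089), minus DMSO (-0.31 to 0.019) and minus SAHA (-0.26 to 0.070), and the untreated lines (-0.28 to 0.0003). The SAHA line difference of APOBEC3B ran from -0.0044 to 0.18. Of 744 values with 1 array left out, 700 kept direction and call. Of 361 under other settings, 324 did. Signal near the floor limits APOBEC3F and 215579_at.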
